A study of Mus musculus with 32 samples.

Results

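The chloride intracellular channel (Clic) genes *Clic1*, *Clic3*, *Clic4*, *Clic5* and *Clic6* were taken by symbol from the deposited tables, as 5 of the 29511 genes counted. Their levels were read in lungs and 6DT1 primary tumors from mice with intact *Clic4* (wildtype, WT) and from *Clic4* knockout (KO) mice. All hosts were virgin female FVB/N mice, littermates from crosses of heterozygous *Clic4* KO animals, and were put to use at 6 to 8 weeks. Control lungs came from mice at baseline (4 WT and 4 KO), and 14-day lungs came from mice that had carried a tumor for 14 days (6 WT and 6 KO). Primary tumors (6 from WT and 6 from KO hosts) were collected at the same time. The tumors grew from 6DT1 cells in the mammary fat pad. 6DT1 is a cell line from a mammary tumor of an MMTV-Myc mouse, and it expresses CLIC4, so its *Clic4* was intact in hosts of both genotypes. The knockout is constitutive and removes the region around exon 2 of *Clic4*. A tumor in a KO host therefore mixed WT tumor cells with KO host cells, whereas a lung had the host's genotype throughout. The labels do not state whether a lung and a tumor of equal number came from one mouse.

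CLIC proteins share the fold of glutathione S-transferases and exist both in soluble form and at membranes. CLIC1 is found widely and is plentiful in macrophages. CLIC3 takes part in endosomal recycling of integrins, CLIC4 in the formation of endothelial tubes and in TGF-β signaling, and CLIC5 in linking membranes to actin through ezrin and radixin, for example in the hair bundles of the inner ear. CLIC6, also called parchorin, is best known from water-secreting epithelia.

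The 5 genes lie at separate loci, and none of the other 4 is on the chromosome of *Clic4*. In GENCODE M21 on GRCm38, *Clic4* (ENSMUSG00000037242) spans chr4:135213969-135272814 on the minus strand. *Clic1* (ENSMUSG00000007041) lies at chr17:35049966-35058749, *Clic5* (ENSMUSG00000023959) at chr17:44188584-44280172, *Clic3* (ENSMUSG00000015093) at chr2:25456838-25458776 and *Clic6* (ENSMUSG00000022949) at chr16:92485736-92541243, all on the plus strand. Each main transcript had 6 exons, and in all 5 genes exon 2 was 110 bases, exon 3 was 126 bases and exon 4 was 107 bases long. *Clic6* had the longest coding sequence, 1788 bases, against 711 to 759 in the other 4.

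Exon 2 is shown for each gene because it is the exon removed in the KO mouse and because it shows how alike the paralogs are. It is coding throughout, and its 110 bases leave a remainder of 2 after whole codons. For *Clic4* it is chr4:135238862-135238971 on the minus strand, coding bases 73 to 182. Capitals mark the bases that are identical in all 5 genes at the same place, counted without gaps, on each gene's own strand from the 5′ end.
Clic1: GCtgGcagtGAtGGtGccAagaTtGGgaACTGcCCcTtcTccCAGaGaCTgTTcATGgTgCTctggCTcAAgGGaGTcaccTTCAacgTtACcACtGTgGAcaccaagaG
Clic3: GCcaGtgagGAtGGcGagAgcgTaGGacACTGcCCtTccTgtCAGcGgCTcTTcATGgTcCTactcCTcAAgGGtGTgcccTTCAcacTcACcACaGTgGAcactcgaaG
Clic4: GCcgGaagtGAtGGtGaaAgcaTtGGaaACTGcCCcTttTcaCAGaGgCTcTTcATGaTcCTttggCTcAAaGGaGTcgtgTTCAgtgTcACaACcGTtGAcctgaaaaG
Clic5: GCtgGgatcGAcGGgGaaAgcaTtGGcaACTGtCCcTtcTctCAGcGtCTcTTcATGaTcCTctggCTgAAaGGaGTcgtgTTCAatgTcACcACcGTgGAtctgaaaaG
Clic6: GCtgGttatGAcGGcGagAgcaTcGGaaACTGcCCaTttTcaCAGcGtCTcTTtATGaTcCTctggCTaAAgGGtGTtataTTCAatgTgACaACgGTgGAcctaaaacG
In exon 2, 56 of the 110 bases were identical in all 5 genes. *Clic5* was closest to *Clic4* with 92 identical bases (83.6%), followed by *Clic6* with 85 (77.3%), *Clic1* with 82 (74.5%) and *Clic3* with 72 (65.5%). Over the whole main transcripts, the longest run of bases shared by any pair was 23 bases, between *Clic4* and *Clic5*. Exon 2 makes up 2.67% of the main *Clic4* transcript, and the deposited values are one sum per gene, so *Clic4* values of KO samples count reads from the exons that remain.

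Levels are given as FPKM, which divides a gene's fragments by its transcript length and by the size of the library, and which allows genes of unlike length to be compared. Samples had 4446323 to 8318711 expected counts assigned to genes, and between 58.1 and 70.2% of all FPKM in a sample fell to 3 small noncoding RNAs, the 7SL genes Rn7s1 and Rn7s2 and the 7SK gene Rn7sk. Groups were compared with edgeR's quasi-likelihood test on the counts, adjusted over all genes tested (FDR under 0.05 for a call), and with two-sided exact permutation tests on log2(FPKM + 1). The files fitted the tissue labels: the 7 surfactant and other alveolar type 2 markers summed to 10618 to 13883 FPKM in 14-day lungs and to 14.67 to 17.01 FPKM in tumors.

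In lungs of WT mice the order was *Clic5*, *Clic4*, *Clic3*, *Clic1* and *Clic6*. *Clic5* had the highest level, 188 ± 2.54 FPKM in WT control lungs (SD, n = 4), with samples from 184.67 to 189.98. *Clic4* followed with 165 ± 6.61 FPKM, *Clic3* with 103 ± 5.86 and *Clic1* with 80.6 ± 8.83. *Clic6* was at 6.14 ± 1.03 FPKM, 13.1-fold below *Clic1*. No neighbours in this order overlapped in the 4 WT control lungs. In the 6 WT lungs at 14 days, *Clic5* and *Clic4* overlapped, as did *Clic3* and *Clic1*. In KO lungs *Clic4* dropped to the fourth place, below *Clic1*, which it overlapped at 14 days and did not in controls.

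Tumors had another order, *Clic1*, *Clic4* and then the other 3 at traces. In WT hosts *Clic1* was at 119 ± 14.2 FPKM (SD, n = 6) and *Clic4* at 77.5 ± 2.66 FPKM, and *Clic1* was the higher in 6 of 6 tumors. *Clic3* stood at 1.43 ± 1.20 FPKM, *Clic6* at 0.442 ± 0.255 and *Clic5* at 0.195 ± 0.151. In KO hosts the means were 127 ± 13.5 FPKM for *Clic1* and 65.3 ± 4.04 for *Clic4*, with 1.87 ± 1.96 for *Clic3*, 0.5683 ± 0.328 for *Clic5* and 0.367 ± 0.257 for *Clic6*. *Clic3*, *Clic5* and *Clic6* overlapped one another in tumors of both host genotypes, so that their order there was not set.

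**Figure D1:**
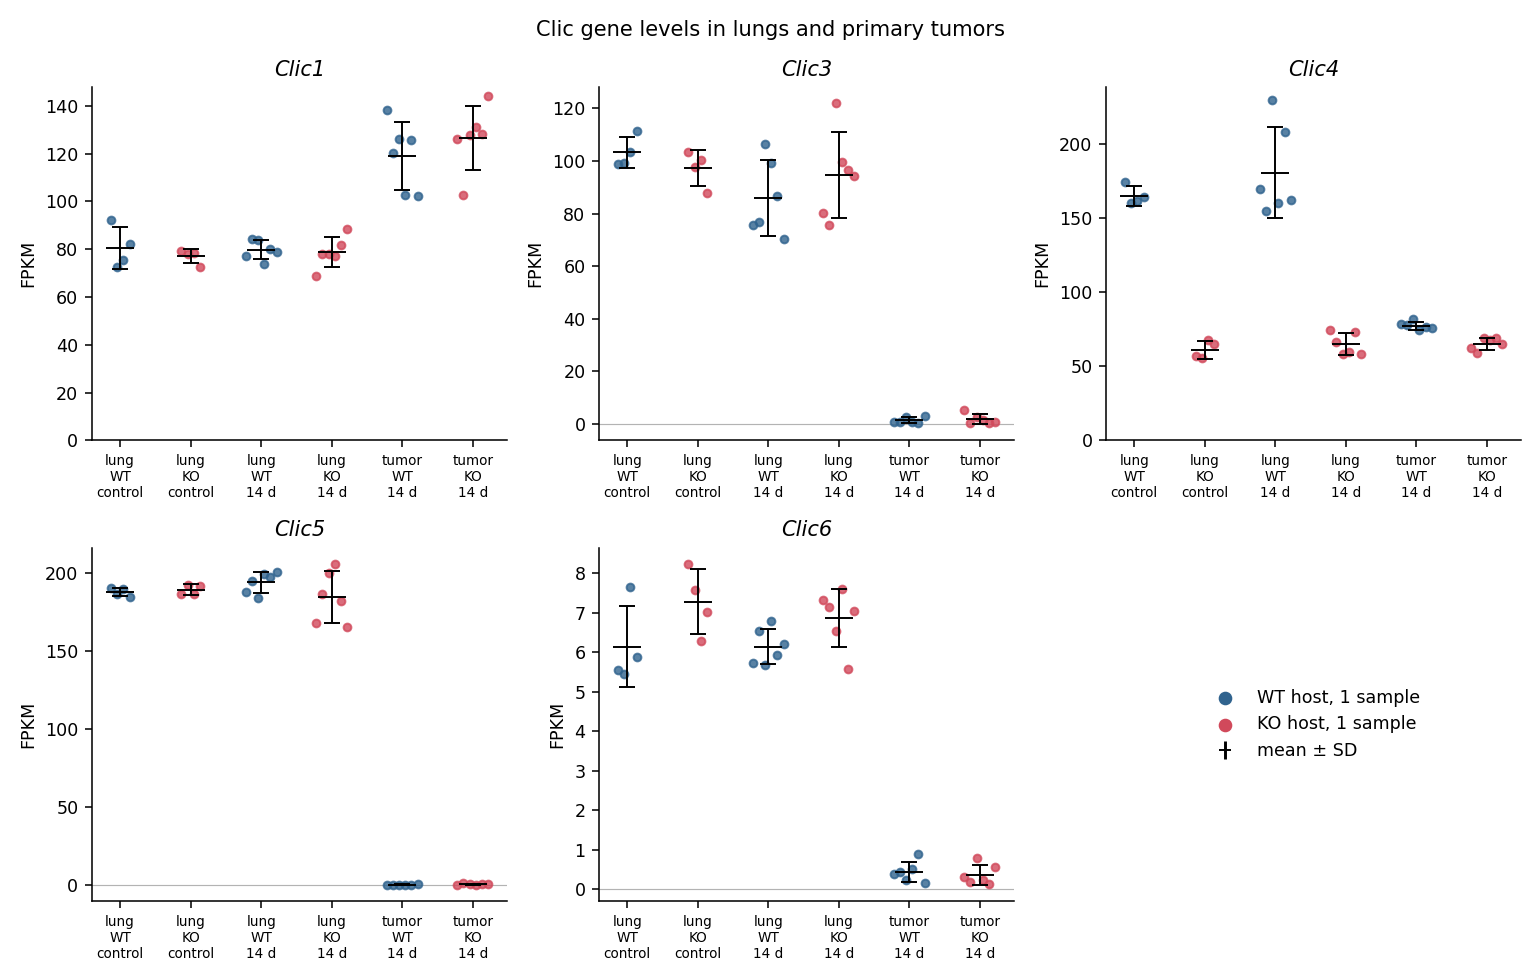
Levels of the 5 genes (FPKM, linear axes with a scale for each gene) in the 6 groups, with 1 point per sample (blue WT host, red KO host) and the mean and SD in black. *Clic1* is higher in the tumors than in the lungs, *Clic3*, *Clic5* and *Clic6* are near 0 in tumors, and *Clic4* of KO lungs sits between 55.42 and 74.56 FPKM, overlapping the tumors, which span 58.92 to 82.23 FPKM.

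The comparison of tumor with lung at 14 days asked how the family differs between the tissues within hosts of 1 genotype. In WT hosts *Clic1* was called higher and *Clic4* lower in tumors, where 75.9% of all genes tested were called. *Clic3*, *Clic5* and *Clic6* passed the filter on low counts through the lungs alone, so a difference was bound to be found for them, and they are described by size alone. *Clic1* was the only member called higher in tumors, in hosts of either genotype. Its WT lungs ranged from 73.93 to 84.21 FPKM (median 79.5) and its WT tumors from 102.34 to 138.09 (median 123). The tumors lay above all lungs, by 0.68 on the log2 scale (SE 0.07, FDR = 1.05e-10 by edgeR), or 1.60-fold with a 95% interval of 1.46 to 1.76. In KO hosts the lungs ranged from 69.00 to 88.27 FPKM and the tumors from 102.51 to 144.02, a difference of 0.78 (SE 0.07).

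*Clic5*, the top gene of the lung, showed the widest gap. In WT hosts it ranged from 183.75 to 200.48 FPKM in lungs and from 0.07 to 0.47 FPKM in tumors, and by edgeR it was 946-fold lower in tumors (95% interval 702 to 1274). In KO hosts it was 305-fold lower (235 to 397). *Clic3* was 57.4-fold lower in tumors of WT hosts (39.3 to 83.8) and 40.7-fold lower in KO hosts (28.6 to 58.0). *Clic6* was 12.8-fold lower in WT hosts (9.35 to 17.4) and 17.6-fold lower in KO hosts (12.8 to 24.3). For these 3 genes, the level of every tumor was below that of every lung in both genotypes, which gives no support beyond the sizes because of how they passed the filter. The markers of alveolar type 1 cells, thin cells of the alveolar wall, moved the same way. Of the 6, *Ager* and *Rtkn2* passed the filter through the lungs alone, and the other 4 of 4 were lower in WT tumors than in WT lungs, where 74.8% of all genes that passed in each tissue were called (4329 of 13342 lower). The whole list had summed levels of 1260 to 1436 FPKM in lungs and 14.8 to 34.1 in tumors. Of the 10 endothelial markers 9 passed the filter in each tissue and 9 of 9 were lower, with sums over the whole list of 1168 to 1354 FPKM in lungs and 70.0 to 89.1 in tumors. Lower calls were also found for 4 of 4 neutrophil, 5 of 6 T and NK cell and 3 of 3 erythroid markers that passed in each tissue. The alveolar type 2 and airway lists had 1 of 1 lower each. Other lists had calls in the direction of *Clic1*, where 5646 of the 13342 genes were called higher. Of the 6 mammary epithelium markers, *Krt8* and *Krt18* were higher and 4 lower, with sums of 273 to 349 FPKM in lungs and 371 to 475 in tumors. Of the macrophage markers 5 of 6 were higher in WT tumors and *Lyz2*, which made up most of their sum, was lower, so that the sum was 1803 to 2123 FPKM in lungs and 375 to 877 in tumors. Of the fibroblast markers 5 of 9 were higher and 3 lower, with sums of 600 to 751 FPKM in lungs and 1008 to 2605 in tumors. Of the adipocyte markers 3 passed in each tissue and 3 of 3 were higher, with sums over the whole list of 8.27 to 19.87 FPKM in lungs and 22.1 to 48.1 in tumors. The part of these cells in the Clic differences was not tested, and in bulk tissue fewer cells of a type and less RNA per cell cannot be told apart.

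*Clic4* differed between tumor and lung in WT hosts and not detectably in KO hosts. In WT hosts, lungs ranged from 154.58 to 229.65 FPKM (median 166) and tumors from 74.65 to 82.23 (median 77.1), without overlap. *Clic4* was 2.23-fold lower in tumors by edgeR (95% interval 1.996 to 2.499, FDR = 1.46e-14). In KO hosts, lungs ranged from 58.17 to 74.56 FPKM (median 63.3) and tumors from 58.92 to 68.98 (median 66.4), so that every tumor fell within the range of the lungs. The log2 difference was 0.11 (95% interval -0.05 to 0.27, FDR = 0.217), which is not a call, in a comparison where 74.4% of all genes tested were called. This value moved with the scaling. On log2(FPKM + 1) the difference was 0.0088 (exact permutation p = 0.903), and it was -0.17 (exact permutation p = 0.0628) when the 3 small RNAs were left out of the total. Leaving them out lowers every gene in KO tumors against KO lungs by 0.18 on the log2 scale, and by 0.20 in WT hosts. *Clic1* stayed higher in tumors on that scale, by 0.37 in WT hosts and 0.50 in KO hosts.

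Summed over the 5 genes, lungs held far more Clic RNA than tumors. The sum was 543 ± 16.05 FPKM in WT control lungs (SD, n = 4) and 546 ± 39.0 in WT lungs at 14 days (n = 6), against 199 ± 15.8 in tumors of WT hosts (n = 6). In KO mice it was 432 ± 6.37 FPKM in control lungs, 430 ± 25.2 in 14-day lungs and 195 ± 16.5 in tumors. *Clic4* made up 30.4% of the sum in WT control lungs and 14.2% in KO control lungs, with 32.9% and 15.2% at 14 days. In tumors it made up 39.1% in WT and 33.6% in KO hosts, and *Clic1* made up 59.8% and 64.9%. *Clic5* alone held 34.6% of the sum in WT control lungs and 43.8% in KO control lungs, and at most 0.632% in any tumor.

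**Figure D2:**
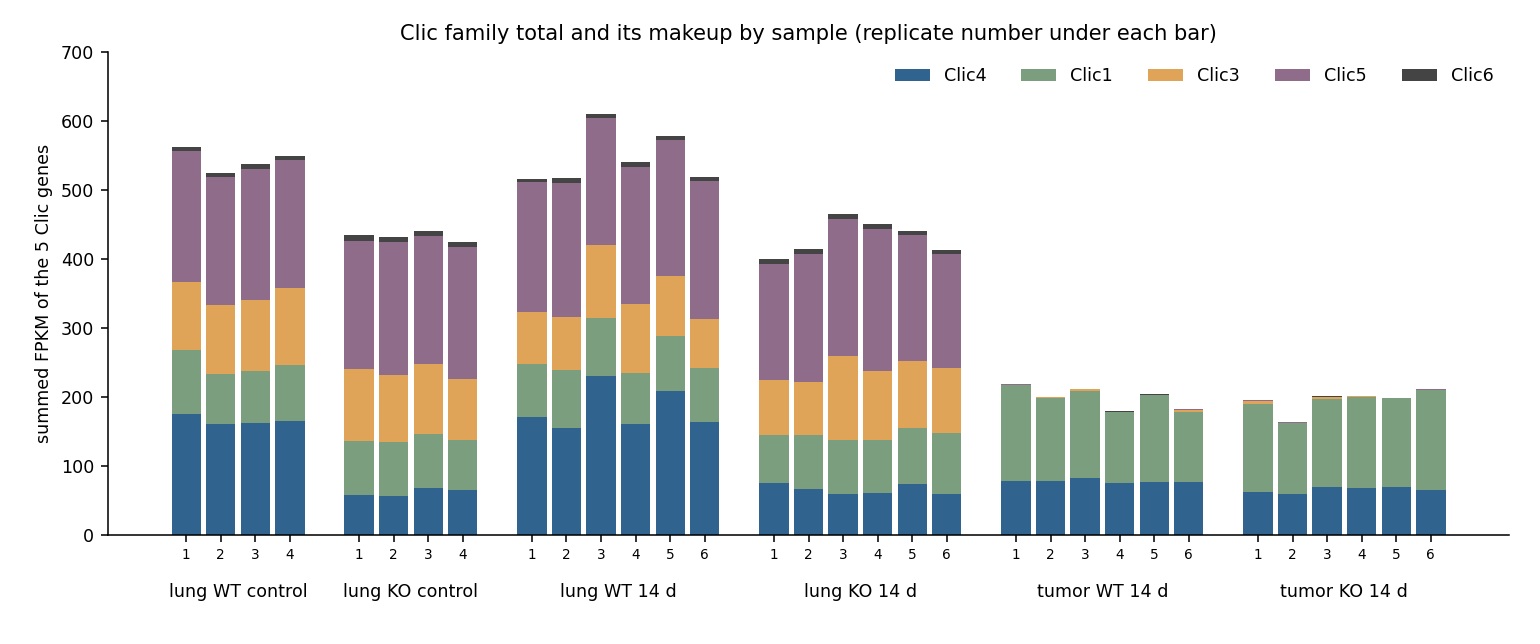
Summed FPKM of the 5 Clic genes in each of the 32 samples (bar height, linear axis from 0), split by gene, with the replicate number under each bar. The 20 lungs range from 399 to 610 FPKM and carry 4 genes in bulk, while the 12 tumors range from 163 to 218 FPKM and consist almost wholly of *Clic1* and *Clic4*.

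The targeted gene matched the labels in all lungs. In control lungs *Clic4* was at 174.73, 160.32, 161.29 and 164.08 FPKM in WT mice and at 56.86, 55.42, 67.59 and 64.96 FPKM in KO mice, and the groups were far apart. It was lower in KO by 1.45 on the log2 scale (SE 0.11, FDR = 1.73e-07 by edgeR), and it was the only member of 5 called, where 0.0187% of all genes tested were called. At 14 days the WT lungs had a median of 166 FPKM, with replicates 3 and 5 highest at 229.65 and 207.92. The KO lungs had a median of 63.3 and a highest value of 74.56. The difference was -1.49 (SE 0.09, FDR = 2.06e-09 by edgeR), again the only call among 5 members, against 0.0936% of all genes tested. KO lungs thus kept 37.1% of the WT level of *Clic4* RNA in controls (SE 1.96) and 36.0% at 14 days (SE 3.01). Of the marker lists at 14 days, *Flt1*, 1 of 10 endothelial genes, was lower in KO lungs by 0.23 (SE 0.04, FDR = 0.0360 by edgeR), with endothelial sums of 1168 to 1354 FPKM in WT and 1111 to 1296 FPKM in KO lungs. *Myh6*, 1 of 3 cardiac muscle genes, was lower by 0.66 (SE 0.10, FDR = 0.00310), with cardiac sums of 176 to 259 FPKM in WT and 131 to 176 FPKM in KO lungs. The other 12 lists had no call in this comparison, and the part of these cells in the *Clic4* difference was not tested. For *Clic4*, the difference between the genotype effects with and without a tumor was -0.03 (95% interval -0.33 to 0.26, FDR = 0.972 by edgeR).

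In tumors the host genotype moved *Clic4* far less. Tumors of WT hosts were at 78.24, 77.69, 82.23, 74.65, 76.48 and 75.67 FPKM, and tumors of KO hosts at 62.20, 58.92, 68.80, 67.68, 68.98 and 65.12 FPKM. Every KO tumor was below every WT tumor (exact permutation p = 0.00216, the smallest that 6 against 6 samples allow). By edgeR the log2 difference was -0.21 (SE 0.05, 95% interval -0.31 to -0.10, FDR = 0.0343), so *Clic4* was 1 of 2 members called of those that passed the filter, against 2.51% of all genes tested. This call is near its limit. The FDR rose to between 0.0517 and 0.0879 without any 1 of WT tumors 2, 3, 4, 5 and 6 or KO tumors 1, 2, 4 and 6, while the log2 difference stayed between -0.22 and -0.19 over all 12 omissions. It was 0.115 with no filter on low counts, 0.106 with equal replicate numbers fitted as blocks and 0.000504 with DESeq2.

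KO tumors kept 84.2% of the WT *Clic4* level (SE 2.44), against 36.0% in 14-day KO lungs. The genotype effects in the tissues differed by 1.27 on the log2 scale (SE 0.11, FDR = 2.39e-08 by edgeR) in a comparison that called 1.06% of all genes tested. The plot of *Clic4* left in KO tissue shows the single samples.

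**Figure D3:**
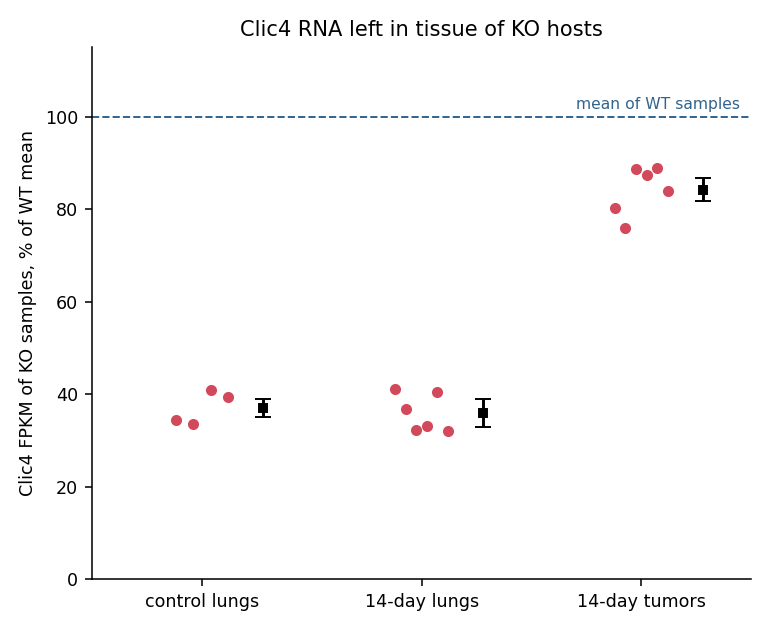
*Clic4* FPKM of each KO sample as a percent of the mean of the WT samples of the same tissue and time (red points, linear axis from 0), with the ratio of means and its SE as black squares. Lungs sit at 37.1% (control) and 36.0% (14 days), tumors at 84.2%, and no KO tumor reaches the WT mean at 100%.

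The host share of tumor *Clic4* follows from these values by arithmetic, under assumptions. The difference between tumors of WT and KO hosts was 12.2 FPKM (SE 1.98), or 15.8% of the WT tumor level (SE 2.44). This is the part of the tumor's *Clic4* RNA that went with the host genotype, and it leaves out whatever RNA KO host cells still made in the tumor. If host cells in a KO tumor keep the same 36.0% that KO lungs kept, and if host content and the tumor cells' own level are equal in both host genotypes, the host part scales to 19.1 FPKM. That is 24.6% of the *Clic4* RNA of WT tumors (SE 3.98) and 10.6% of the WT lung level. With TMM-normalized CPM in place of FPKM (counts per library size times a composition factor, with no transcript length), the shares were 13.8% and 21.5%. The residue of KO host cells inside a tumor and the tumor cells' own level cannot be read from bulk values. On host content, 12 of the 14 lists of cell type markers had a gene that passed the filter in tumors, and some genes differed. *Nkg7* and *Cd3d*, of the 6 markers of T and NK cells, were higher in KO tumors, by 1.35 (SE 0.26, FDR = 0.00930 by edgeR) and 1.46 (SE 0.35, FDR = 0.0391). The summed level of that list was 8.13 to 22.5 FPKM in WT and 16.7 to 32.2 FPKM in KO tumors. *Msln*, a mesothelial marker and 1 of 1 tested from its list, was lower by 0.49 (SE 0.12, FDR = 0.0460). Of the endothelial list 0 of 9 were called, with sums of 70.0 to 89.1 FPKM in WT and 74.1 to 102 FPKM in KO tumors, and of the fibroblast list 0 of 9, with sums of 1008 to 2605 FPKM in WT and 1243 to 2690 FPKM in KO tumors. Macrophage markers gave 0 of 6, with sums of 375 to 877 FPKM in WT and 531 to 1112 FPKM in KO tumors. The other 7 lists with a gene tested had no call, against 2.51% of all genes, and those of alveolar type 2 and airway cells had 1 gene tested each. The B cell and cardiac muscle lists had none tested. Their part in the *Clic4* difference was not tested.

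The question whether other Clic genes rise where *Clic4* is lost was put to each tissue. No other member was called in KO lungs, nor was *Clic1* in KO tumors, and the intervals bound the change. In control lungs the log2 differences ran from -0.11 for *Clic3* (95% interval -0.32 to 0.10) to 0.24 for *Clic6* (0.0047 to 0.48, unadjusted p = 0.0460 and FDR = 0.423 by edgeR). In 14-day lungs they ran from -0.06 for *Clic5* (-0.16 to 0.03) to 0.17 for *Clic6* (-0.03 to 0.37). *Clic6* was at 5.56, 5.46, 7.66 and 5.88 FPKM in WT control lungs and at 8.24, 7.57, 6.30 and 7.01 FPKM in KO control lungs. At 14 days it ranged from 5.67 to 6.80 FPKM in WT (median 6.08) and from 5.57 to 7.60 in KO (median 7.10). Its levels overlapped between the genotypes at both times, and 4 of 6 KO lungs at 14 days lay above all WT lungs. *Clic1* in tumors differed by 0.13 (-0.02 to 0.28, FDR = 0.419 by edgeR).

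In amounts, the other 4 genes did not fill the gap in lungs, and tumors did not settle it. Their sum in KO control lungs was 6.63 FPKM lower than in WT (SE 6.66), where *Clic4* was 104 FPKM lower (SE 4.46). At 14 days the other 4 were 0.768 FPKM lower (SE 13.3) and *Clic4* was 116 FPKM lower (SE 12.9). In KO tumors the other 4 were 8.21 FPKM higher (SE 7.98) and *Clic4* 12.2 FPKM lower (SE 1.98), so that the whole family differed by -3.997 FPKM (SE 9.33), and neither a filled nor an open gap could be told at this spread. The summed family was 97.99% of the WT level in tumors against 79.6% in control lungs and 78.7% in 14-day lungs. These sums count the *Clic4* RNA left in KO samples. The paper detected no CLIC4 protein in fibroblasts of KO lungs, so in KO lungs the sums describe RNA and not protein.

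**Figure D4:**
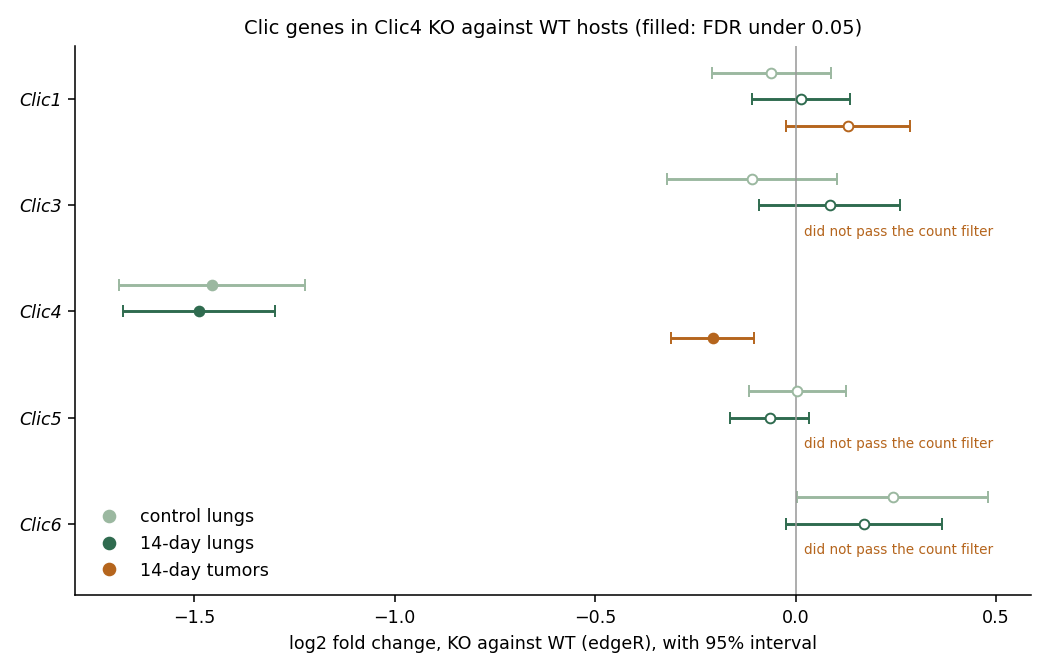
Log2 fold change of each Clic gene in KO against WT hosts (points, with 95% intervals) in control lungs, 14-day lungs and 14-day tumors, by edgeR, with filled points at an FDR under 0.05. *Clic4* alone has filled points, near -1.5 in both lung comparisons and at -0.21 in tumors, and *Clic3*, *Clic5* and *Clic6* have no point for tumors because they did not pass the filter on low counts there.

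*Clic5* was at traces in tumors of both hosts, with a higher mean in KO hosts. WT tumors held 6, 7, 2, 2, 4 and 13 expected counts and KO tumors 8, 27, 19, 5, 29 and 14. The levels were 0.07 to 0.47 FPKM in WT and 0.18 to 1.03 FPKM in KO tumors, which overlap, with 3 of 6 KO tumors above all WT tumors. The mean was 2.91-fold higher in KO hosts (exact permutation p = 0.0346). *Clic5* did not pass the filter in the tumor comparison. With no filter, the log2 difference was 1.58 (SE 0.48, FDR = 0.169 by edgeR), which is not a call. In lungs the genotype difference was -0.06 at 14 days, and the tissues differed in this by 1.63 (SE 0.35, 95% interval 0.91 to 2.35), or by 1.49 without KO tumor 5. In that fit of all samples *Clic5* passed the filter through the lungs alone, so the value is a description and is not counted as a call. The exact permutation p of the tumor levels ranged from 0.0130 to 0.0693 when single tumors were left out, and passed 0.05 without KO tumor 2, 3 or 5 or WT tumor 1, 3, 4 or 5. Even in KO tumors *Clic5* remained 305-fold below its lung level.

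Epithelial markers are given beside this, for the whole list. Of the 6 mammary epithelium markers, 0 were called between KO and WT tumors, and their sum was 371 to 475 FPKM in WT and 316 to 381 FPKM in KO tumors. The abundant members were lower on average in KO hosts, with *Krt8* at 219.8 ± 35.2 FPKM in WT and 186 ± 15.6 in KO tumors (SD, n = 6 each) and *Krt18* at 157 ± 20.3 and 129 ± 13.5. Both encode keratins of simple epithelia. The 4 scarcer members were higher on average in KO hosts. *Krt19* was at 21.96 ± 7.29 FPKM in WT and 25.7 ± 6.07 in KO tumors, and *Krt7* at 0.738 ± 0.767 and 1.29 ± 0.724. *Epcam*, an epithelial adhesion molecule, was at 4.36 ± 3.72 and 6.69 ± 3.88 FPKM, and *Cdh1*, which encodes E-cadherin, at 3.52 ± 3.43 and 5.40 ± 2.82. The values of all 6 overlapped between the hosts. Some tumors high in *Clic5* were also high in several scarcer members of the list, and others were not. WT tumor 6 had the highest *Clic5* of its group (0.47 FPKM) and the highest *Krt19* (35.72), *Krt7* (2.29), *Epcam* (11.70) and *Cdh1* (10.47), with the lowest *Krt8* (180.29) and *Krt18* (130.91). KO tumor 2 had the highest *Clic5* of its group (1.03 FPKM), *Krt19* (35.66) and *Epcam* (12.63), and KO tumor 5 was next in *Clic5* (0.79) and *Epcam* (9.53) and highest in *Krt7* (2.48), with the lowest *Krt8* (164.19) and *Krt18* (107.55). Other KO tumors went another way. KO tumor 3 had *Clic5* at 0.72 FPKM, above all WT tumors. It had less *Krt19* (25.83), *Epcam* (5.15) and *Cdh1* (5.44) than KO tumors 2 and 5. KO tumor 1 had the highest *Cdh1* of its group (8.85 FPKM, against 7.74 and 6.14 in KO tumors 2 and 5) and the third-highest *Epcam* (6.83) with a low *Clic5* (0.31), and KO tumor 6 had the next-highest *Krt19* (27.23) with *Clic5* at 0.38. Alveolar type 1 markers gave 0 of 4 calls between the tumors, with sums of 14.8 to 34.1 FPKM in WT and 19.3 to 33.8 FPKM in KO tumors. Adipocyte markers gave 0 of 4 calls, with sums of 22.1 to 48.1 FPKM in WT and 28.4 to 103 FPKM in KO tumors. The part of these cells in the *Clic5* difference was not tested.

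For the other trace genes no difference by host was detectable in tumors. *Clic3* had 1 to 9 expected counts in WT and 1 to 16 in KO tumors (exact permutation p = 0.760), and *Clic6* had 3 to 20 in WT and 3 to 13 in KO tumors (exact permutation p = 0.593). With so few counts the intervals were wide, from -0.72 to 1.98 on the log2 scale for *Clic3* and from -1.22 to 0.74 for *Clic6* by edgeR with no filter, so changes of 1.5-fold were not detectable at this depth.

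**Figure D5:**
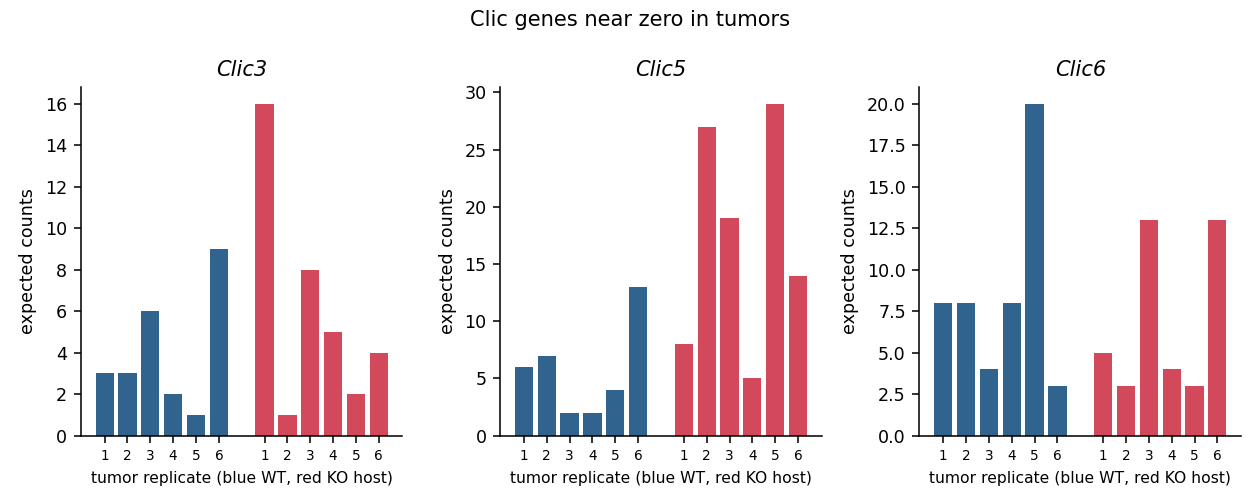
Expected counts of *Clic3*, *Clic5* and *Clic6* in each of the 12 tumors (bars, linear axes from 0; blue WT host, red KO host). *Clic5* reaches 27 and 29 counts in KO tumors 2 and 5 against at most 13 in WT tumors, *Clic3* reaches 16 in KO tumor 1 against at most 9 in WT tumors, and *Clic6* reaches 20 in a WT tumor against at most 13 in KO tumors.

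The last question was whether a distant tumor changes Clic genes in the lung. None of 5 members was called in WT lungs at 14 days against WT control lungs by edgeR, where 0% of the 16029 genes tested were called. At an unadjusted p under 0.05 the counts were 1 of 5 members and 1884 genes, and DESeq2 called 0 members and 74 genes. The member was *Clic3*. It was at 98.88, 99.27, 103.36 and 111.51 FPKM in WT control lungs and at 75.76, 76.78, 106.55, 99.39, 86.57 and 70.44 FPKM at 14 days, with 4 of 6 below all controls and replicates 3 and 4 within their range. The log2 difference was -0.34 (SE 0.09, unadjusted p = 0.00154, FDR = 0.178 by edgeR). On FPKM it was -0.28 (exact permutation p = 0.0857). The overlap depended on the scale. In TMM-normalized CPM every WT lung at 14 days (40.7 to 55.0) was below every WT control lung (57.0 to 62.3). The difference there was -0.35 (exact permutation p = 0.00952). In KO lungs *Clic3* differed by -0.14 between 14 days and control (95% interval -0.34 to 0.05), and the difference between the genotypes in this response was 0.19 (-0.08 to 0.47, FDR = 0.721 by edgeR).

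*Clic4* itself was 0.13 higher in WT lungs at 14 days (95% interval -0.07 to 0.34, FDR = 0.627 by edgeR), with the mean raised by replicates 3 and 5. *Clic5* differed by 0.04 (-0.07 to 0.15), *Clic1* by -0.03 (-0.16 to 0.11) and *Clic6* by 0.0025 (-0.22 to 0.22). In KO lungs none of 5 members was called at 14 days against control by edgeR, where 0.0374% of all genes tested were called, and 0 members had an unadjusted p under 0.05 or a call by DESeq2. The test of unlike responses in the genotypes called 0 of 5 members by edgeR and by DESeq2, against 0.00624% of all genes tested, and 0 members had an unadjusted p under 0.05.

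Known partners and relatives of CLIC proteins were followed as a list of 17 genes. In KO against WT tumors 1 of 15 tested was higher and 0 were lower, against 2.51% of all genes tested. It was *Tgm2*, transglutaminase 2, an enzyme that cross-links proteins. It rose from 91.8 ± 7.52 FPKM in WT to 141 ± 20.1 FPKM in KO tumors (SD, n = 6 each), a log2 difference of 0.66 (SE 0.09, FDR = 0.000528 by edgeR), with every KO tumor (lowest 118.79) above every WT tumor (highest 100.52). In 14-day lungs 0 of 15 were called between the genotypes, against 0.0936% of all genes tested, and *Tgm2* differed by -0.03 (SE 0.07). The median log2 difference of the list was 0.06 in tumors and 0.03 in lungs. Between WT tumors and WT lungs, 14 of the list passed the filter in each tissue, of which 3 were called higher and 10 lower in tumors, where 74.8% of all genes that passed in each tissue were called. *Gsto1*, a glutathione transferase of the omega class to which CLIC proteins are related, was 1.54 higher in tumors (SE 0.09). *Slc9a3r2*, a scaffold of the ezrin network, was 5.22 lower (SE 0.18, FDR = 1.80e-22 by edgeR).

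Chloride channels of other families were followed as a list of 28 genes, of which 27 were in the files. Between KO and WT, 0 of 17 tested in tumors were called, against 2.51% of all genes tested, and 0 of 21 in 14-day lungs, against 0.0936%, so counts of 0 are near the background. In tumors the smallest FDR was that of *Clcn7*, a lysosomal chloride transporter, with a log2 difference of 0.38 (SE 0.11, FDR = 0.0881 by edgeR). Between WT tumors and WT lungs, 16 passed the filter in each tissue, of which 7 were called higher and 6 lower in tumors, near the 74.8% of all such genes. *Cftr*, the channel mutated in cystic fibrosis, passed through the lungs alone, with 7.88 to 10.68 FPKM in WT lungs and 0 to 0.10 FPKM in WT tumors. The calcium-activated channel gene *Ano1* was 1.39 higher in tumors (SE 0.09) and rose from 42.6 ± 3.77 to 103 ± 12.9 FPKM.

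Variation within groups was compared between the Clic genes. Over the 20 lungs, deviations from the group means in log2(TMM CPM + 1) gave Pearson correlations from -0.476, for *Clic1* and *Clic6*, to 0.184, for *Clic1* and *Clic3*. Without the 2 samples farthest from the median, *Clic1* and *Clic6* gave -0.566, and *Clic1* and *Clic4* went from 0.068 to 0.470, the highest of the 10 pairs. Over the 12 tumors *Clic1* and *Clic4* gave 0.11, and -0.088 without the farthest 2. The genes whose deviations were most like those of *Clic4* in lungs were *Rlim* (r = 0.852), *Ube2d3* (0.840) and *Slc20a1* (0.839), and in tumors *Uqcc2* (0.931), *Lipt2* (0.921) and *Syne1* (0.897). For *Clic1* they were *Tmsb4x* (0.894), *Ptbp3* (0.864) and *Fcgr4* (0.841) in lungs and *Tmem237* (0.933), *Tpp2* (0.930) and *Tbl1x* (0.929) in tumors. For *Clic3* they were *Adat2* (0.793), *Glipr1* (0.790) and *Psmb7* (0.755) in lungs, for *Clic5* *Gm5784* (0.838), *Zfp955b* (0.833) and *Lonrf1* (0.830), and for *Clic6* *Gm26642* (0.819), *Fam73b* (0.818) and *Ak1* (0.816). These points share libraries and their depth, and they are the highest of all genes tested, so they are high by selection.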

How the data were processed

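Stranded mRNA libraries of 32 tissue samples were made; alignment to GRCm38 (mm10) by STAR and gene quantification by RSEM were done by the authors. The deposited expected counts are whole numbers per gene without normalization, and the deposited FPKM values are those of RSEM. Counts were fitted with edgeR 4.0.16 (R 4.3.3) after TMM normalization and filterByExpr, in fits of 12 tumors, 20 lungs or all 32 samples with one mean per group, and were tested on simulated data. The SE is the log2 fold change divided by the square root of F. Permutation tests were exact and used a pseudocount of 1. Exons and sequences came from GENCODE M21. The members and lists were chosen with earlier results of these data known. Named are the members, at most 4 genes per list (the smallest p in each direction, the defining marker) and the 3 genes closest to each member; the 6 mammary epithelium markers were named in full after seeing values. Alternatives were DESeq2 1.42.0, RLE factors, no filter, the study's limits (FDR 0.05 and 2-fold in tumors, FDR 0.25 and 1.5-fold with lungs), a replicate block, compared groups alone, other scalings and each sample left out.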

Additional observations from a re-analysis of the deposited data

Results flagged for a closer look

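Of 30 sets of values (5 Clic genes in 6 groups), 1 had a sample that stood apart by Dixon's test, where chance gives about 1 in 20. In KO control lungs *Clic1* was at 72.68 FPKM in replicate 4, against 78.06 to 79.08 FPKM in the other 3, a gap of 0.841 of the group's range.

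The effect of host genotype on *Clic4* differed between tumor and lung at 14 days. A smaller effect in tumors was set by the design, because 6DT1 cells had intact *Clic4* in hosts of both genotypes. The difference was 1.27 on the log2 scale (FDR = 2.39e-08 by edgeR), with 6 of 6 KO samples below all WT samples in both tissues. For *Clic5* the same difference was 1.63, with 3 of 6 KO tumors above all WT tumors and traces of the gene in all 12 tumors. *Clic5* passed the filter on low counts through the lungs alone, so this value is given as a size and not counted as a call.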

How the results depend on the processing

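Of edgeR's calls among members, that of *Clic4* in KO against WT tumors depended on the setting. In tumors by host, 0 members were called under the study's limits, with no filter or with the replicate block, and 0 or 1 when single tumors were left out (9 of 12 omissions gave 0). For unlike genotype effects in the tissues the count of members under the FDR limit was 1 to 2 with single samples left out, 1 without KO tumor 5, where *Clic5* was lost. On the FPKM scale, *Clic4* of KO tumors against KO lungs turned to -0.17 without the small RNAs. Without them the summed Clic FPKM became 1062 and 850 in WT and KO control lungs, 1075 and 838 in 14-day lungs and 340 and 335 in tumors. Near-zero values changed sign: with TMM CPM, *Clic1* in 14-day lungs by genotype (0.015) and *Clic6* in WT lungs by tumor (-0.0028); with no filter, *Clic5* in control lungs by genotype (-0.0014) and *Clic6* in WT lungs by tumor (-0.00083). *Clic3* in WT lungs by tumor was -0.35 with TMM CPM (exact permutation p = 0.00952).

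With each sample left out, these log2 differences of edgeR changed sign. *Clic1* ran from -0.024 to 0.055 in 14-day lungs by genotype and from -0.063 to 0.010 in WT lungs by tumor. *Clic5* ran from -0.018 to 0.018 in control lungs by genotype and from -0.057 to 0.0054 in KO lungs by tumor. *Clic6* ran from -0.049 to 0.12 in WT lungs by tumor. *Clic4* ran from -0.083 to 0.051 for unlike tumor responses of the genotypes in lungs, and *Clic3* from -0.13 to 0.93 for unlike genotype effects in the tissues. On log2(FPKM + 1), *Clic1* ran from -0.0055 to 0.065 in KO lungs by tumor, from -0.052 to 0.018 in 14-day lungs by genotype, from -0.11 to 0.0089 in control lungs by genotype and from -0.060 to 0.056 in WT lungs by tumor. *Clic3* ran from -0.13 to 0.0063 in KO lungs by tumor, from -0.34 to -0.22 in WT lungs by tumor and from -0.15 to 0.32 in tumors by host. *Clic4* ran from -0.022 to 0.049 in KO tumors against KO lungs, and from -1.47 to -1.38 in control lungs by genotype, where 3 against 4 samples cannot go below an exact permutation p of 0.0571. *Clic5* ran from 0.30 to 0.45 in tumors by host and from 0.036 to 0.061 in WT lungs by tumor. *Clic6* ran from -0.035 to 0.11 in WT lungs by tumor, from 0.11 to 0.19 in 14-day lungs by genotype and from -0.16 to 0.0026 in tumors by host. Exact permutation p fell below 0.05 without 14-day WT lung 3 for *Clic3* and *Clic5* in WT lungs by tumor (0.0476 each) and without 14-day KO lung 5 for *Clic6* by genotype (0.0130).

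The number of all genes called also moved. In tumors by host it was 347, with 146 at the study's limits and 542 by DESeq2. In 14-day lungs by genotype it was 15, with 34, 70 by DESeq2 and 6 in a fit of the compared groups alone, and in control lungs 3, with 37, 43 and 6. By tumor it was 0 in WT lungs, with 92 at the study's limits and 74 by DESeq2, and 6 in KO lungs, with 42, 70 and 0. For unlike tumor responses it was 1, with 5 and 17, and for unlike genotype effects in the tissues 179, with 573, 302 and 114. With single samples left out, it ran from 203 to 488 in tumors by host (203 without WT tumor 5, 213 and 227 without KO tumors 6 and 5) and from 114 to 323 for unlike genotype effects in the tissues (114 without KO tumor 5, 119 without KO tumor 6 or WT tumor 5, 323 without WT tumor 6). By genotype it ran from 7 to 22 in 14-day lungs and from 1 to 3 in control lungs, and by tumor from 0 to 4 in WT lungs and 0 to 6 in KO lungs. For unlike tumor responses a fit of compared groups alone is the same fit.

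Equal replicate numbers were not taken as pairs, since correlations of their deviations from the group means exceeded 0.1 in 0 to 3 pairs of each comparison. In KO tumors against KO lungs all 6 were above 0 (0.050 to 0.178), with a median of 0.078 against -0.010 for other pairs. With the replicate block the count of members called was 0 in tumors by host, where *Clic4* was at -0.21 with an FDR of 0.106 by edgeR, and the other 8 counts of members kept their value. The genes called became 13 in WT and 24 in KO lungs by tumor and 0 for unlike responses. Depth limits the 3 trace genes in tumors, which had 1 to 29 expected counts.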
